A study of Mus musculus with 24 samples.

Results

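The mitosis and spindle genes are 46 genes whose products drive a cell into mitosis, build the spindle, hold chromosomes on it and divide the cell. They were chosen by symbol, and a probe was assigned to one of them when the RefSeq transcript given for it in the scanner output belonged to that symbol. The 46 genes, of 23787 genes with a symbol on the array, had 72 probes. All 46 had a tested probe, and 23 of them had more than 1. The RNA came from TM3 cells, a mouse Leydig cell line grown in serum-containing medium. Cells in suspension in electroporation cuvettes were either sham-exposed or exposed to a nanosecond pulsed electric field (nsPEF) of 80 pulses of 60 ns at 14 kV/cm over 180 s. The 6 groups are sham at 0, 4 and 24 h and nsPEF at 0, 4 and 24 h after the exposure, with 4 replicates each, every one on a one-colour Agilent array of its own. All groups shared the detachment, the washes, the strainer and the cuvette, and no group was left undisturbed.

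Mitosis starts when the kinase Cdk1, bound to a B-type cyclin, is switched on by Cdc25 phosphatases. Polo and Aurora kinases then build the spindle, kinetochores attach chromosomes to its microtubules, and the spindle checkpoint holds back anaphase until every kinetochore is attached. The anaphase-promoting complex with Cdc20 then frees separase from its inhibitor securin, and the central spindle directs cytokinesis. Most of the genes are transcribed late in the cell cycle. Their promoters are known for CCAAT boxes, bound by NF-Y, and for the cell cycle genes homology region (CHR), bound by complexes that repress it in resting cells and activate it in cycling cells.

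The promoters were examined because these genes moved together, as described below. RefSeq promoter windows of GRCm38.p6, from 250 bases before to 50 bases after a transcription start, were given for 38 of the 46 genes in 41 windows. Both strands were searched, and each motif was counted whether or not it overlapped another. TTTGAA, the common form of the CHR, was in 31 of these 41 windows (28 genes), and in 17.9% of the 32851 windows of all mouse genes. TTTAAA, the only other form searched, was in 10 of the 41 windows and in 13.2% of all windows. CCAAT was in 31 of the 41 windows (29 genes) and in 37.4% of all windows. A CCAAT box together with the common form of the CHR was in 26 of the 41 windows and in 6.95% of all windows. Either of the E2F motifs TTTGGCGC or TTTCGCGC was in 1 window, that of Cdk1, and in 0.813% of all windows. Of the 39 matches of TTTGAA, 12 began within 100 bases before a start and 19 after it, whereas 46 of the 68 matches of CCAAT began within 100 bases before a start. A site in overlapping windows of the same gene was counted in each window. The TTTGAA site of Cep55 thus counts as before 1 start and as after the other. The 120 bases before the start are shown for 7 genes, 5′ to 3′ on the strand of the gene. CCAAT boxes and the searched forms of the CHR, on either strand, are in capitals. The first is the gene that fell most by 4 h, the next 4 span anaphase, chromosome structure and the kinases, Cdk1 is the entry kinase, and Prc1 is the gene that did not pass the test at 4 h.
Cenpf (chr1:189688087-189688206, minus strand): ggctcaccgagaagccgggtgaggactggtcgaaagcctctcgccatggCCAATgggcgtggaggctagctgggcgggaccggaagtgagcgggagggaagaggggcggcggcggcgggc
Cdc20 (chr4:118437344-118437463, minus strand): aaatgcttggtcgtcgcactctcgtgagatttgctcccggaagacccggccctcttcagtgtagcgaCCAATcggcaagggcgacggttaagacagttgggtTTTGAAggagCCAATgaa
Espl1 (chr15:102296173-102296292, plus strand): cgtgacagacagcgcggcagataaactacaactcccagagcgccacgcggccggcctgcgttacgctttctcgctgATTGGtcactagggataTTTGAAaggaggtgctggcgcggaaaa
Top2a (chr11:99024190-99024309, minus strand): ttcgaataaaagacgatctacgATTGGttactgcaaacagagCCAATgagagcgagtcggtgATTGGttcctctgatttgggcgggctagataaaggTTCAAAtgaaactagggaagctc
Plk1 (chr7:122159315-122159434, plus strand): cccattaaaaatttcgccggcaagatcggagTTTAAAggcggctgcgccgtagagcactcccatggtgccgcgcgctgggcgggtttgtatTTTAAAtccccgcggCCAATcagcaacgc
Cdk1 (chr10:69352913-69353032, minus strand): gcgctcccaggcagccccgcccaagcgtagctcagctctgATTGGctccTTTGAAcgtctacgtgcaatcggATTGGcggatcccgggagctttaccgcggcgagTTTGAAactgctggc
Prc1 (chr7:80294356-80294475, plus strand): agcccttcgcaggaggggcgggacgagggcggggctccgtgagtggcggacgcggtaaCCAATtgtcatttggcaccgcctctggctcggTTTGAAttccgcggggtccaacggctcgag
A CCAAT box stood in all 7 of these stretches. Prc1, shown before the later of its 2 annotated starts, held a CCAAT box and the common form of the CHR. As a description, the median difference between sham at 4 h and at 0 h was -0.70 on the log2 scale for the 28 genes with TTTGAA in a window and -0.60 for the 10 genes without it. For CCAAT it was the other way, at -0.63 for the 29 genes with it and -0.82 for the 9 genes without it.

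**Figure D1:**
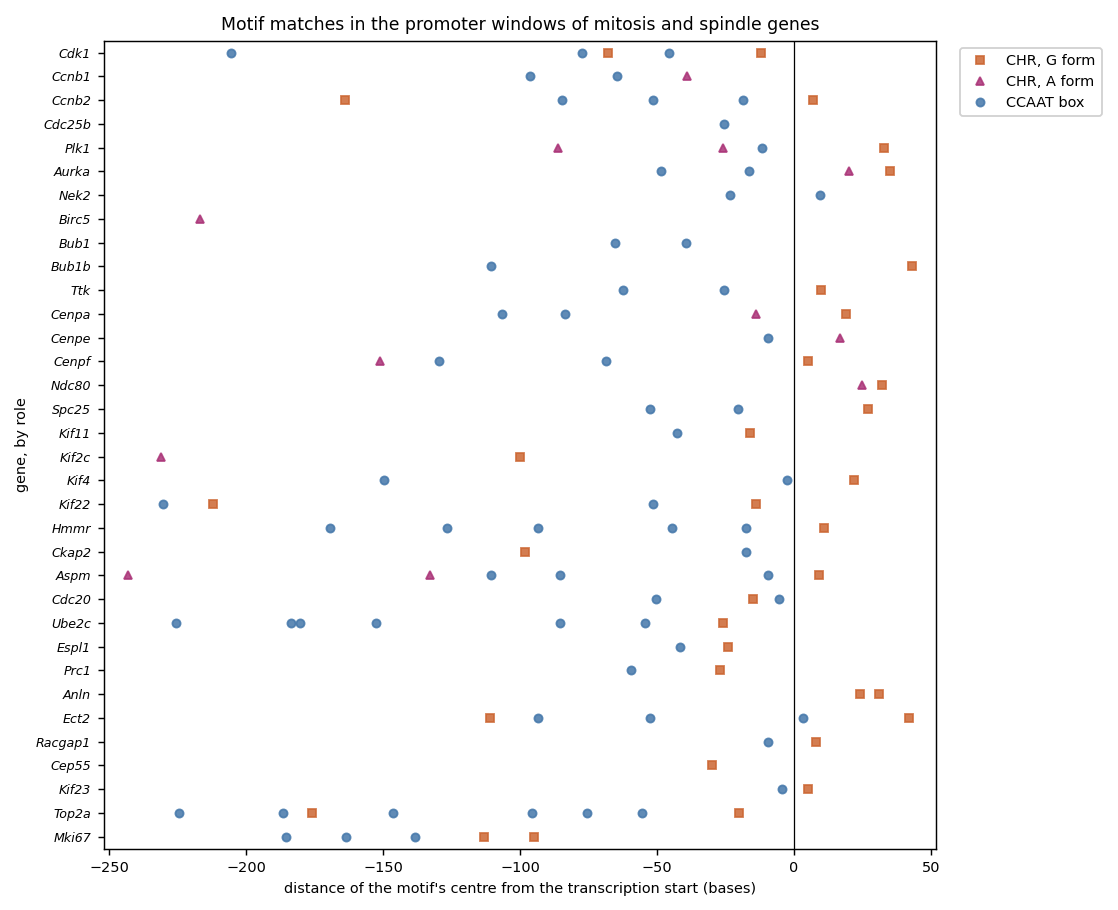
Positions of the matches of the CHR motif in its common form (G form) and another form (A form) and of the CCAAT box, in bases from the transcription start (vertical line), in 1 promoter window per gene for the 34 genes with a match, ordered by role. CCAAT boxes lie mostly upstream of the start, and 19 of the 39 matches of TTTGAA over all windows lie after it.

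Values are log2 intensities minus the log2 75th percentile of their array, so that 0 is that percentile, and each gene is read on its tested probe with the highest mean. The signal was well above background on all 24 arrays for 45 of the 46 genes and on 23 arrays for Cenpf, and 0 spots were saturated. On the remaining array, a sham array at 0 h, the spot of Cenpf was left out as an outlier and so not counted. The 75th percentile of the intensity lay between 202 and 533 on the 24 arrays, and sham replicate 4 at 4 h was the brightest. That array also had the lowest mean over the 46 genes among the sham arrays at 4 h (2.73, against 2.84 to 2.88 on the others). The nsPEF arrays had fewer probes well above background than the sham arrays of the same slide at each time (51.2% to 57.2% against 57.5% to 62.1% over all times). They also had 62 to 443 spots marked as non-uniform, against 36 to 112 on the sham arrays. A slide held the 8 arrays of 1 time point, with the 4 sham arrays in its first row and the 4 nsPEF arrays in its second. The slide therefore cannot be told apart from time, nor the row from treatment. Of the 10 Leydig cell markers, Star, Cyp17a1, Nr5a1 and Gata4 were well above background on all 24 arrays. Cyp11a1, Hsd3b6, Hsd17b3 and Lhcgr were above it on 0 arrays, Hsd3b1 on 1, and Insl3 was not matched to a probe. Wt1, Sox9 and Rhox5 of 6 Sertoli cell markers and Csf1r, Cd68 and Itgam of 6 macrophage and leukocyte markers were also above background on all arrays, while Ptprc and Adgre1 were on 1 and Tyrobp on 0. Of the endothelial markers only Pecam1 was above background on all arrays. Of the germ cell markers only Tnp1 was, with Prm1 on 17 and Ddx4 on 16.

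In sham cells the mitotic genes fell by 4 h. Of the 46 genes, 45 were lower in sham at 4 h than at 0 h and 0 were higher. The test was limma with Benjamini-Hochberg adjustment over all 37684 tested probes, of which 29.7% were lower and 29.4% higher. The median difference was -0.70, a 1.63-fold lower level, against -0.01 over all tested probes. In 41 of the 46 genes every array at 4 h lay below every array at 0 h, as in 28.1% of all probes. The fall reached at least 2-fold in 9 genes, from 2.03-fold for Kif22, a chromokinesin, to 2.90-fold for Cenpf, a protein of the outer kinetochore. The share of all tested probes that fell this far was not counted. Over the 24696 tested probes well above background on all arrays, the 10th percentile of the difference was -0.80. The mean over the 46 genes dropped from 3.54 ± 0.02 (SD, n = 4) to 2.82 ± 0.07. In bulk RNA, fewer cells in mitosis and less of the RNA per cell cannot be told apart.

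**Figure D2:**
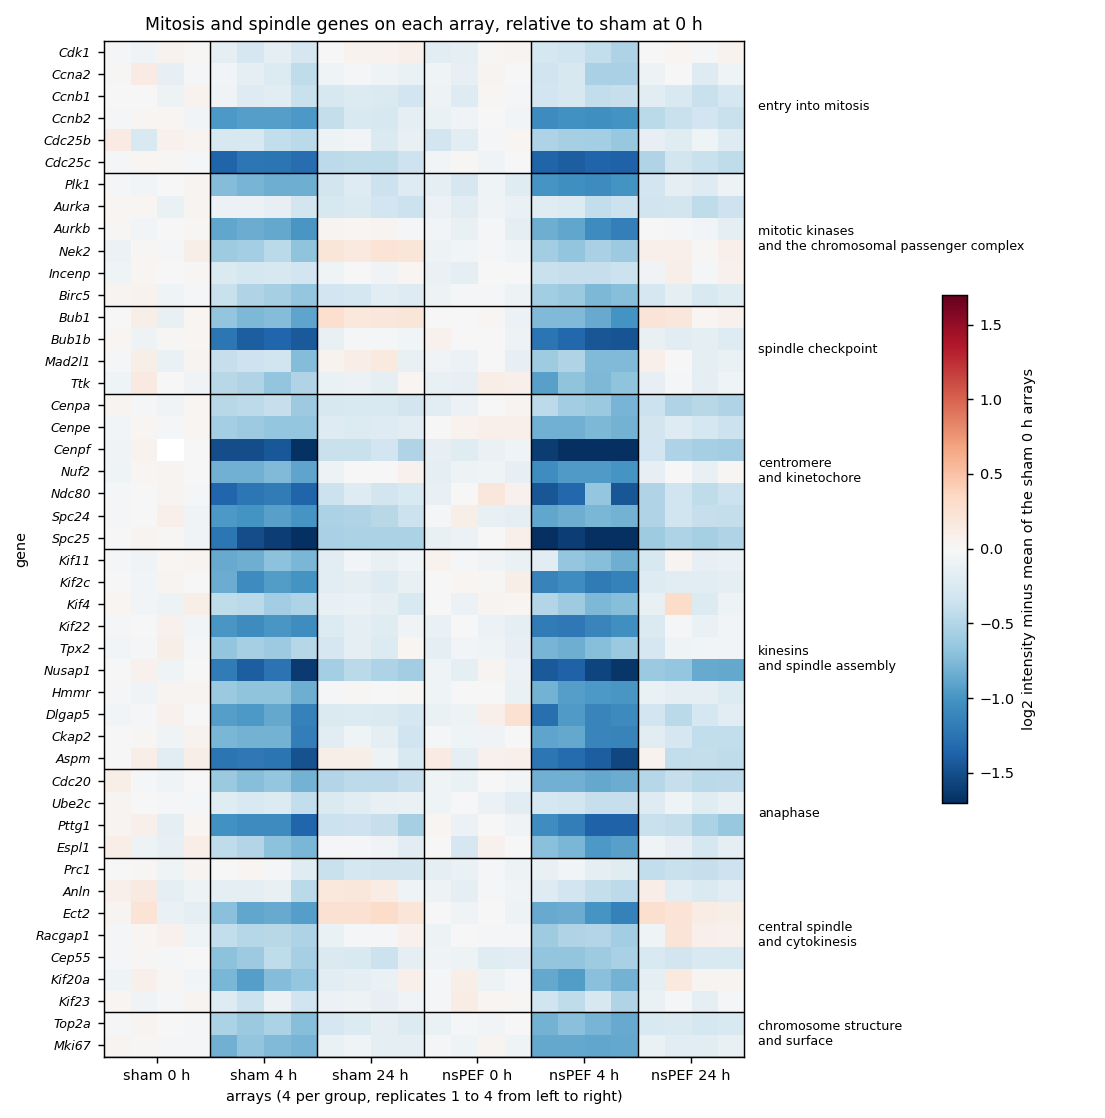
Log2 intensity of the 46 genes (rows, grouped by role) on the 24 arrays (columns), each minus the mean of that gene on the sham arrays at 0 h; the white cell for Cenpf is a spot that the scanner software marked as an outlier. Nearly all rows turn blue in both 4 h groups and return toward the 0 h level at 24 h, and Prc1 changes little at 4 h on this scale.

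Among the 6 genes of mitotic entry, all 6 fell in sham by 4 h, by unequal amounts. Cdc25c, a phosphatase that activates Cdk1, stood at 2.20, 2.27, 2.25 and 2.22 in sham at 0 h and at 0.87, 1.01, 0.99 and 0.94 at 4 h. The arrays were far apart, with a difference of -1.28 (SE 0.04, adjusted p = 2.1e-15). Ccnb2, a B-type cyclin, fell by 0.96. Cdk1 itself stood at 3.88, 3.83, 3.96 and 3.91 at 0 h and at 3.74, 3.61, 3.74 and 3.61 at 4 h. Its groups did not overlap, but its difference was only -0.22 (SE 0.06, adjusted p = 0.0029). Ccnb1, the main partner of Cdk1, gave 4.43, 4.43, 4.34 and 4.48 at 0 h and 4.35, 4.20, 4.23 and 4.05 at 4 h, with 1 array of 4 h inside the range of 0 h. Its difference of -0.21 and that of -0.22 for the S and G2 phase cyclin Ccna2 passed the test. Cdc25b, a phosphatase that starts the activation of Cdk1 at centrosomes, fell from 0.87, 0.48, 0.80 and 0.77 to 0.46, 0.46, 0.32 and 0.27, with a difference of -0.35 (SE 0.08, adjusted p = 0.0010). Its second probe gave -0.02 (adjusted p = 0.96). The second probe of Cdk1 gave -0.11 (adjusted p = 0.060), and both other probes of Ccnb1 fell.

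The kinases and the chromosomal passenger complex split. Plk1, the polo-like kinase of mitotic entry and spindle poles, stood at 3.99, 3.97, 4.02 and 4.06 in sham at 0 h and at 3.27, 3.22, 3.18 and 3.18 at 4 h, a difference of -0.79 (SE 0.05). Aurkb, the kinase of the passenger complex, fell from 2.92, 2.86, 2.90 and 2.92 to 2.01, 2.06, 2.03 and 1.91, a difference of -0.89 (SE 0.06). The arrays of both genes were clearly apart. Aurka, the kinase of the spindle poles, gave 5.63, 5.63, 5.48 and 5.64 against 5.49, 5.50, 5.46 and 5.28, so that its groups overlapped and its difference of -0.16 (SE 0.06, adjusted p = 0.023) was the smallest among the called genes. The passenger subunits Birc5 and Incenp fell by 0.53 and by 0.29, and the centrosomal kinase Nek2 fell by 0.58.

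All 4 spindle checkpoint genes fell. Bub1b, the checkpoint protein BubR1, stood at 2.88, 2.77, 2.88 and 2.89 at 0 h and at 1.62, 1.46, 1.51 and 1.43 at 4 h, a difference of -1.35 (SE 0.06, adjusted p = 2.8e-14). Bub1 fell by 0.77, the kinase Ttk (Mps1) by 0.55 and Mad2l1 by 0.46. The kinetochore genes had the lowest median of the 8 role groups, -0.98 over 7 genes. Cenpf stood at 4.09, 4.21 and 4.15 on the 3 sham arrays at 0 h that measured it and at 2.64, 2.63, 2.71 and 2.46 at 4 h, a difference of -1.53 (SE 0.08). The Ndc80 complex, which grips the microtubule end, fell as a whole, with differences of -1.51 for Spc25, -1.28 for Ndc80, -0.98 for Spc24 and -0.82 for Nuf2. Cenpe, a kinetochore motor, fell by 0.63 and Cenpa, the histone variant that marks centromeres, by 0.48.

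Of the 10 genes of kinesins and spindle assembly all 10 fell, with a median of -0.93. Nusap1, which bundles spindle microtubules, fell from 3.13, 3.21, 3.06 and 3.13 to 1.95, 1.73, 1.88 and 1.51, a difference of -1.37 (SE 0.08). Aspm, a spindle pole protein, fell from 3.31, 3.42, 3.12 and 3.41 to 2.08, 2.11, 2.08 and 1.84, a difference of -1.29 (SE 0.11). No array at 4 h reached the range at 0 h in either gene. The others ranged from -1.02 for Kif22 to -0.50 for the chromokinesin Kif4, with -0.97 for the depolymerizing kinesin Kif2c, -0.79 for Kif11, which pushes spindle poles apart, and -0.58 for the Aurka activator Tpx2. Hmmr, a spindle microtubule protein, fell by 0.71, Dlgap5 by 0.98 and Ckap2 by 0.89.

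The 4 anaphase genes fell as well. Pttg1, securin, stood at 6.14, 6.18, 5.93 and 6.13 at 0 h and at 5.07, 5.02, 5.02 and 4.75 at 4 h, a difference of -1.13 (SE 0.09). A second probe of Pttg1 went the other way, from -0.35, -0.43, -0.46 and -0.42 to -0.31, -0.30, -0.25 and -0.26, a rise of 0.13 (SE 0.05, adjusted p = 0.017). Espl1, the protease separase, gave 3.69, 3.50, 3.45 and 3.69 against 3.15, 3.08, 2.88 and 2.81, a difference of -0.60 (SE 0.09). Cdc20, the activator of the anaphase-promoting complex, fell from 5.38, 5.25, 5.22 and 5.28 to 4.65, 4.56, 4.63 and 4.48, a difference of -0.70 (SE 0.04). The ubiquitin-conjugating enzyme of that complex, Ube2c, fell by only 0.28.

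The genes of the central spindle and cytokinesis held the 1 gene that did not pass the test. Ect2, an exchange factor that activates RhoA at the cell equator, fell from 3.87, 4.06, 3.71 and 3.67 to 3.12, 2.95, 2.97 and 2.90, a difference of -0.85 (SE 0.08). Prc1, which bundles the microtubules of the central spindle, stood at 4.36, 4.39, 4.29 and 4.41 at 0 h and at 4.36, 4.40, 4.33 and 4.16 at 4 h. Its groups overlapped, and the difference of -0.05 had a 95% interval of -0.15 to 0.06 (adjusted p = 0.44). Its second probe gave -0.02. Prc1 was called lower, however, with quantile normalization (-0.19), normexp (-0.17), the 75th percentile of the probes detected on all arrays (-0.16) and centring by array row (-0.11), so that its place outside the call depended on the scaling. The other members fell by 0.78 (the kinesin Kif20a), 0.58 (Cep55), 0.47 (Racgap1), 0.25 (the kinesin Kif23) and 0.22 (Anln), with a second probe of Cep55 at -0.24 (adjusted p = 0.22) and one of Anln at -0.29 (adjusted p = 0.054). Kif23 gave 2.02, 1.93, 1.97 and 2.03 at 0 h and 1.77, 1.63, 1.89 and 1.64 at 4 h, with no overlap. Of the 2 chromosome proteins, Mki67, the Ki-67 antigen of cycling cells, fell from 5.22, 5.20, 5.15 and 5.14 to 4.37, 4.51, 4.43 and 4.38, a difference of -0.76 (SE 0.04). Top2a, topoisomerase II alpha, fell from 5.44, 5.51, 5.45 and 5.43 to 4.92, 4.83, 4.92 and 4.74, a difference of -0.61 (SE 0.05). Of the 26 probes that were not used for reading a gene, 25 had the same sign in this comparison as the probe that was, and 21 the same call.

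**Figure D3:**
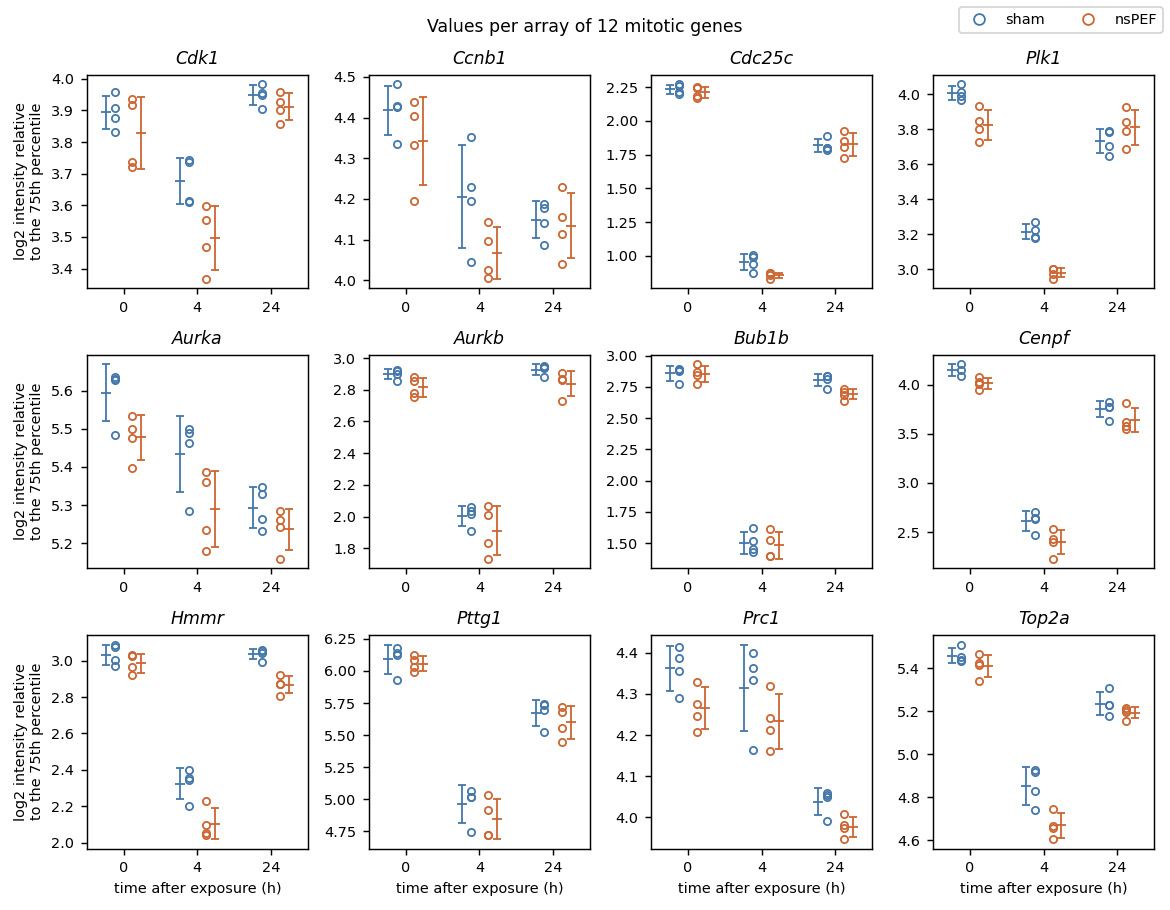
Log2 intensity minus the log2 75th percentile of each array for 12 of the genes against time; each circle is 1 array (4 per group, 3 for Cenpf in sham at 0 h), and the bars beside them are the mean ± SD of sham (blue) and nsPEF (orange), with a vertical scale of its own for each gene. Cdc25c, Bub1b and Cenpf fall steeply at 4 h, Cdk1 and Aurka little, and Prc1 is lower at 24 h than at 4 h.

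From 4 h to 24 h most of the genes rose again in sham cells. Of the 46 genes 41 rose and 2 fell, where 27.8% of all tested probes rose and 29.9% fell, and the median difference was 0.52 against 0.01 over all probes. In 40 of the 46 genes every array at 24 h lay above every array at 4 h, as in 26.8% of all probes. Bub1b rose most, to 2.74, 2.83, 2.84 and 2.81 at 24 h, a rise of 1.30 (SE 0.06). Aspm rose by 1.26 to 3.42, 3.41, 3.24 and 3.06, Cenpf by 1.14 to 3.77, 3.77, 3.83 and 3.63, and Ect2 by 1.11 to 4.09, 4.08, 4.15 and 4.03. Aurkb rose by 0.92 to 2.95, 2.93, 2.95 and 2.88, 0.03 above 0 h (adjusted p = 0.77). Cdc25c rose by 0.86 to 1.79, 1.80, 1.80 and 1.88, still below its arrays at 0 h. Pttg1 rose by 0.71 to 5.73, 5.74, 5.70 and 5.52, and its second probe fell by 0.18 (adjusted p = 0.0024). Mki67 rose by 0.63 to 5.06, 5.10, 5.02 and 5.01.

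Other genes recovered in part or not at all. Cdc20 rose by only 0.26, to 4.79, 4.84, 4.84 and 4.88, and stayed 0.45 below 0 h. Ccnb1 stood at 4.14, 4.19, 4.18 and 4.09 at 24 h, a difference from 4 h of -0.06 with a 95% interval of -0.19 to 0.08, although 1 of its other probes rose by 0.24 (adjusted p = 0.0084). Ccna2 gave 0.14 (adjusted p = 0.15) on the probe read here and rose by 0.47 on a second. Conversely, other probes of Racgap1 (0.06), Cdc25b (0.13), Cdk1 (0.10), Kif2c (0.20) and Kif23 (-0.14) did not pass the test where the probe read here did. Prc1 fell between 4 h and 24 h, to 3.99, 4.06, 4.05 and 4.05, a difference of -0.28 (SE 0.05, adjusted p = 7.4e-05). This call was lost with quantile normalization (-0.05) and turned with spike-in scaling (0.41). Aurka gave 5.33, 5.35, 5.26 and 5.23 at 24 h, and its difference of -0.14 (adjusted p = 0.046) took the opposite sign with quantile normalization (0.080) and with the 75th percentile of the probes detected on all arrays (0.024). Against 0 h, 22 genes were lower at 24 h in sham and 3 were higher, where 19.7% of all tested probes were lower and 16.9% higher, and the median was -0.17. The 3 higher ones were Ect2 (0.26), Bub1 (0.22) and Nek2 (0.20), and Nusap1 and Spc25 were the lowest, both at -0.54. Of the 22, Prc1 (-0.32) had not passed the test at 4 h. Here only 17 of the 26 other probes had the sign of the probe read, 9 differed in the call and 1 was called the opposite way. This comparison depended on the scaling. On the spike-in RNA, 44 of the 46 genes were higher and 0 lower at 24 h than at 0 h. That scaling put the median of all probes 0.73 higher at 24 h. Relative to all probes, the median of the 46 was -0.16 with the 75th percentile. Spike-in scaling shifts all probes of an array alike, so its equal value of -0.16 is no separate test. The relative median was -0.097 with quantile normalization, -0.104 with normexp and -0.170 with no filter.

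The nsPEF cells went through the same fall and return. Between 0 h and 4 h 45 of the 46 genes fell and 0 rose, where 10480 of the 37684 tested probes (27.8%) fell and 12616 rose. The median of the 46 was -0.79 against 0.09 over all probes. In 45 genes every array at 4 h lay below every array at 0 h, as in 25.3% of all probes. The fall was at least 2-fold in 11 genes, and the share of all probes that fell this far was not counted. Over the 24696 tested probes well above background on all arrays, the 10th percentile was -0.81. Spc25 fell most, by 1.67, followed by Cenpf (4.01, 3.94, 4.03 and 4.07 to 2.53, 2.40, 2.43 and 2.23) by 1.62. Bub1b went from 2.93, 2.85, 2.87 and 2.77 to 1.62, 1.53, 1.40 and 1.40, a difference of -1.37, beside -1.35 in sham. Prc1 again did not pass, with 4.21, 4.25, 4.33 and 4.28 at 0 h and 4.24, 4.32, 4.21 and 4.16 at 4 h (difference -0.03, adjusted p = 0.60), and it was called lower under the same 4 alternatives as in sham (-0.20 to -0.12). Between 4 h and 24 h 42 genes rose and 1, Prc1, fell, where 27.5% of all tested probes rose and 29.0% fell, with a median of 0.66. The fall of Prc1 (-0.26) was again lost with quantile normalization (-0.08) and turned with spike-in scaling (0.18). In 40 genes the arrays of 24 h all lay above those of 4 h, as in 23.7% of all probes. Against 0 h, 22 genes were lower at 24 h and 2, Ect2 and Nek2, were higher, where 18.3% of all tested probes were lower and 23.9% higher. The call of 8 of the 26 other probes differed in this comparison, and of 8 between 4 h and 24 h. On the spike-in RNA this comparison too turned, with 37 genes higher and 0 lower, while the median of all probes was 0.61 higher.

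**Figure D4:**
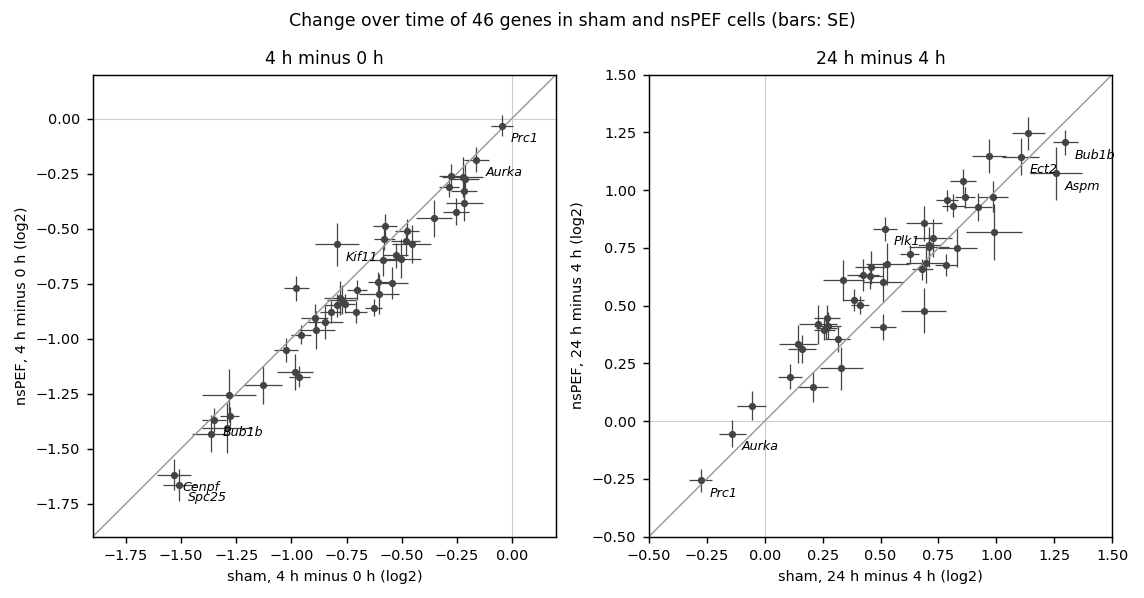
Change of each of the 46 genes in sham (horizontal) and in nsPEF cells (vertical) on the log2 scale, from 0 h to 4 h on the left and from 4 h to 24 h on the right, with bars for the SE and a line of equal change. The points lie along the line in both panels, and Prc1 lies near 0 on the left and lowest on the right.

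Directly after the exposure 0 of the 46 genes were called between nsPEF and sham in either direction by limma, where 0.127% of all tested probes were called. At an unadjusted p under 0.05 there were 3 genes, and the share of all tested probes at that threshold was not counted. The median difference was -0.05 against -0.03 over all probes. The lowest was Plk1, at 3.85, 3.73, 3.93 and 3.80 in nsPEF against 3.99, 3.97, 4.02 and 4.06 in sham. The arrays of the groups did not overlap, with a difference of -0.18 (SE 0.05, adjusted p = 0.18). The same held for Cenpf and Cep55, so in 3 of 46 genes the nsPEF arrays were all the lower ones, as in 4.33% of all probes. The 95% intervals, which are not adjusted for the number of genes, had a median half-width of 0.13 over the 46 genes, and larger differences than this could miss the adjusted threshold.

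At 4 h, when the genes were at their lowest, 4 of the 46 were lower in nsPEF than in sham and 0 were higher. Of all tested probes 1.60% were lower and 1.71% higher. Among the 24696 tested probes that were well above background on all arrays, 2.09% were lower. The count of the 46 at an unadjusted p under 0.05 was 24, and the share of all tested probes at that threshold was not counted. The median difference of the 46 was -0.13 against 0.00 over all tested probes and -0.02 over those above background on all arrays, and 43 of the 46 differences were below 0, as were 40 of the 46 at 0 h and 33 at 24 h. Negative differences at 4 h also made up 72.6% of the 4488 tested probes with a mean signal in the middle of the range of the 46 genes (2.38 to 4.54), with a median of -0.05. Among the same probes they made up 75.8% at 0 h and 52.9% at 24 h. At 4 h Plk1 stood at 3.00, 2.97, 2.95 and 3.00 in nsPEF against 3.27, 3.22, 3.18 and 3.18 in sham, with no overlap. Its difference was -0.24 (SE 0.05, adjusted p = 0.021), a 1.18-fold lower level. Cenpe gave 4.25, 4.24, 4.30 and 4.25 against 4.49, 4.45, 4.41 and 4.40, also apart, with a difference of -0.18 (SE 0.04, adjusted p = 0.019). Hmmr gave 2.23, 2.10, 2.06 and 2.04 against 2.40, 2.35, 2.35 and 2.20, a difference of -0.22 (SE 0.05, adjusted p = 0.024). The groups of Hmmr overlapped through sham replicate 4, and its other probes gave -0.19 (adjusted p = 0.19) and 0.22 (adjusted p = 0.39). Top2a gave 4.66, 4.75, 4.67 and 4.61 against 4.92, 4.83, 4.92 and 4.74, with a slight overlap and a difference of -0.18 (SE 0.05, adjusted p = 0.036), and its second probe was lower as well (-0.25, adjusted p = 0.027).

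These calls rested on small differences, and the part of the lower detection on the nsPEF arrays in them was not tested. With the 75th percentile taken over the probes detected on all arrays, 0 of the 46 genes were called, the median being -0.08 where that of all probes moved to 0.06. On the spike-in RNA, which raised the median of all probes to 0.22, Spc24 and Kif11 were called higher and 0 genes lower, and Top2a (0.028) and Cenpe (0.036) turned. Relative to all probes the median of the 46 was -0.14 with the 75th percentile over all probes. Scaling on the spike-in RNA subtracts 1 number per array, so it could not change this relative median. The relative median was -0.05 with quantile normalization, -0.09 with normexp and -0.26 with no filter. The count was 0 without sham replicate 1, 2 without sham replicate 3, 7 without sham replicate 4, 1 without nsPEF replicate 3 and 2 without nsPEF replicate 4. With 1 replicate number removed from all groups it was between 0 and 1. With the replicate number as a block, Nuf2 was called as well.

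Among the other genes at 4 h, every nsPEF array lay below every sham array in 11 of the 46, as in 6.38% of all probes. Besides Plk1 and Cenpe these included Cdk1, with 3.60, 3.55, 3.47 and 3.37 against 3.74, 3.61, 3.74 and 3.61 (difference -0.18, adjusted p = 0.090), although its second probe gave 0.16 (adjusted p = 0.079). Cdc20 was among them, with 4.46, 4.46, 4.41 and 4.44 against 4.65, 4.56, 4.63 and 4.48 (difference -0.14, adjusted p = 0.095). So were Cdc25b, with 0.20, 0.16, 0.15 and 0.08 against 0.46, 0.46, 0.32 and 0.27 (difference -0.23, adjusted p = 0.13), and Ttk, with 0.68, 0.92, 0.85 and 0.92 against 1.13, 1.09, 0.93 and 1.09 (difference -0.22, adjusted p = 0.10). Mki67 gave 4.31, 4.31, 4.29 and 4.30 against 4.37, 4.51, 4.43 and 4.38 (difference -0.12, adjusted p = 0.11). None of these 5 genes passed the test. Espl1 had the lowest difference, -0.25 (adjusted p = 0.13), with 2.88, 2.80, 2.61 and 2.65 in nsPEF against the sham arrays given above, and its groups overlapped. Cenpf gave -0.22 (adjusted p = 0.095). Kif23 gave 1.65, 1.56, 1.72 and 1.47 (difference -0.13, adjusted p = 0.21). Ccnb1 gave 4.10, 4.14, 4.01 and 4.03 (difference -0.14, adjusted p = 0.23), and Aurka gave 5.39, 5.36, 5.18 and 5.23 (difference -0.14, adjusted p = 0.17), and both overlapped the sham range. Aurkb gave 2.07, 2.01, 1.83 and 1.74 (difference -0.09, adjusted p = 0.40) and overlapped with sham. Differences above 0 were found for Kif11 (0.19, adjusted p = 0.27), Spc24 (0.15, adjusted p = 0.13) and Ndc80 (0.06, adjusted p = 0.82). In 1 of the 46 genes every nsPEF array lay above every sham array, and the share of all probes that did so was not counted.

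**Figure D5:**
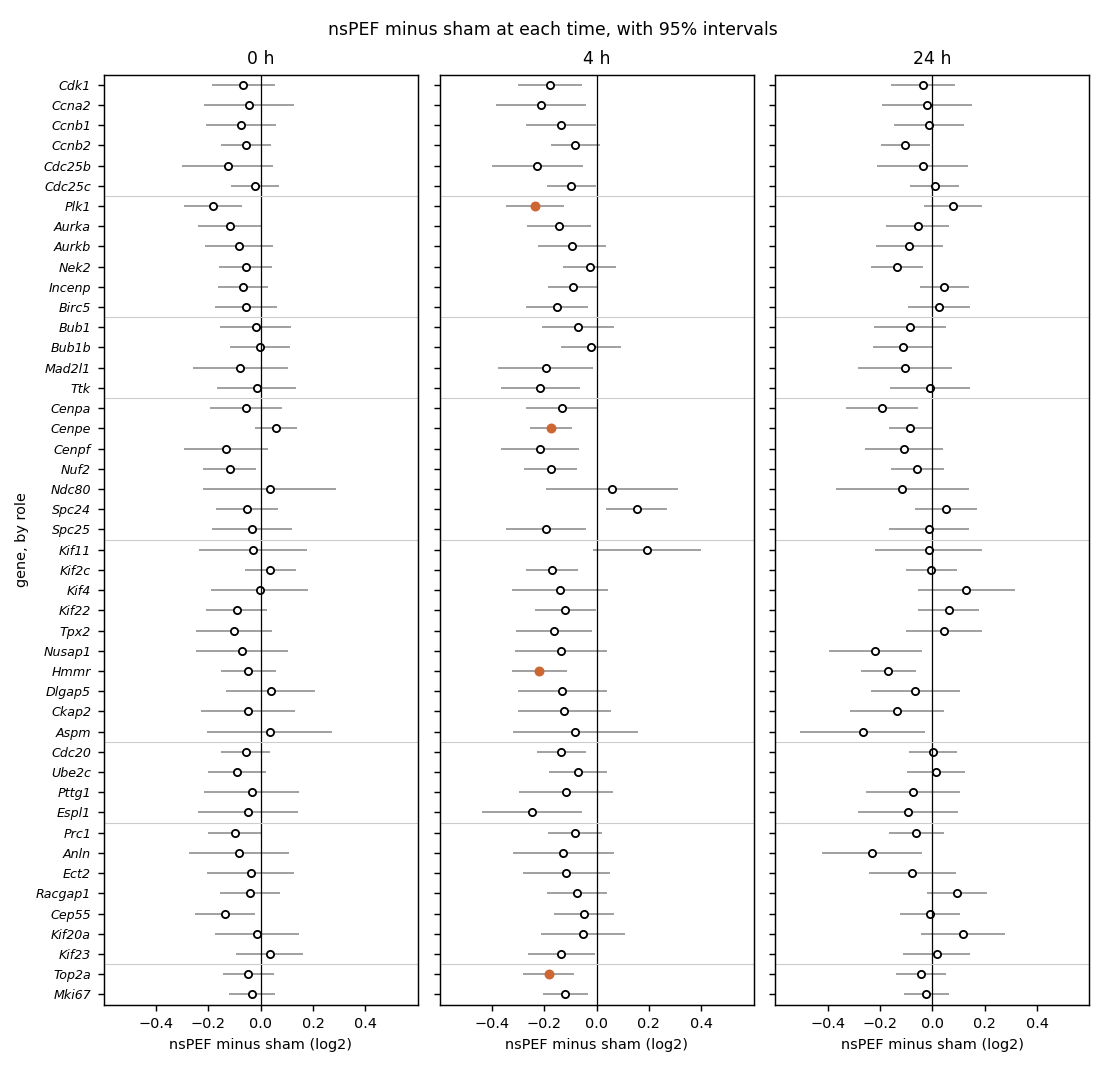
Difference between nsPEF and sham on the log2 scale for each of the 46 genes at 0, 4 and 24 h, with 95% intervals from limma that are not adjusted for the number of genes; filled orange points are called at an adjusted p under 0.05. At 4 h 43 of the 46 points lie below 0 and 4 are called (Plk1, Cenpe, Hmmr and Top2a), and at 0 and 24 h none is.

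At 24 h the count was 0 of 46 again by limma, where 4.82% of all tested probes were called. At an unadjusted p under 0.05 there were 8 genes, again without a count over all probes. The median difference was -0.04 against 0.02 over all probes. In 5 of the 46 genes the highest nsPEF array lay below the lowest sham array, as in 7.16% of all probes. Without nsPEF replicate 1 at 24 h, 4 genes were called. Hmmr was one of them, at 2.92, 2.87, 2.87 and 2.80 in nsPEF against 2.99, 3.06, 3.04 and 3.05 in sham, with a difference of -0.17 (SE 0.05, adjusted p = 0.058). Aspm had the lowest difference, -0.27 (adjusted p = 0.18), with 3.38, 2.89, 2.91 and 2.88 in nsPEF. One of these arrays lay within the sham range and the other 3 below it. Plk1 gave 3.68, 3.84, 3.79 and 3.93 against 3.70, 3.79, 3.65 and 3.79, with a difference of 0.08 (adjusted p = 0.39). Pttg1 gave -0.07 on the probe read here (adjusted p = 0.64) and was higher in nsPEF on its second probe (0.16, adjusted p = 0.048).

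Whether the difference between nsPEF and sham changed with time was tested as well, and 0 of the 46 genes passed in each of the 3 tests by limma. The tests called 0.0345% of all probes for 4 h against 0 h, 0.353% for 24 h against 0 h and 0.448% for 24 h against 4 h. At an unadjusted p under 0.05 there were 4, 2 and 10 of the 46 genes, and the share of all probes at that threshold was not counted. The gene nearest to the threshold was Plk1 between 24 h and 4 h, by 0.31 (SE 0.07, adjusted p = 0.066). Without nsPEF replicate 1 at 24 h, 1 gene passed in each of the tests that used 24 h. So the 4 calls at 4 h were not shown to differ from the differences at 0 h and 24 h.

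Other genes of the cell cycle were read in the same way. Of 82 other mitosis genes, 66 fell and 8 rose in sham by 4 h (median -0.53), where 29.7% of all tested probes fell and 29.4% rose. In nsPEF 8 of the 82 were lower and 0 higher than in sham at 4 h (median -0.11), where 1.60% of all tested probes were lower and 1.71% higher. Of 48 DNA replication genes, 42 fell and 2 rose in sham by 4 h (median -0.61), 44 rose and 0 fell from 4 h to 24 h, and 1 was lower in nsPEF at 4 h, a share near that of all tested probes. The 32 regulators of mitotic transcription and mitotic entry were mixed, with 8 higher, a share close to that of all tested probes, and 15 lower in sham at 4 h than at 0 h. The antiproliferative gene Btg2 had the largest difference (-4.25, SE 0.08). It was followed by Ccng2 (-2.21), the pocket protein gene Rbl2 (-2.19), the Cdk inhibitor gene Cdkn1a, which rose by 1.58, and E2f1 (-1.11). Foxm1, a transcription factor of mitotic genes, gave 0.04 (adjusted p = 0.57). The NF-Y genes Nfya (1.10, adjusted p = 7.7e-11), Nfyb (0.48, adjusted p = 0.0014) and Nfyc (0.57, adjusted p = 2.3e-07) were higher in sham at 4 h than at 0 h. At 4 h the checkpoint kinase gene Chek2 (-0.44, adjusted p = 0.011), Ccng1 (-0.32, adjusted p = 0.019) and the Cdk inhibitor gene Cdkn1b (-0.23, adjusted p = 0.030) were lower in nsPEF than in sham. The stress gene Gadd45a, whose protein can inhibit the Cdk1 and cyclin B1 complex, was higher (0.40, adjusted p = 0.014). Its level was lower at 4 h than at 0 h in both sham (-1.07) and nsPEF (-0.76).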

How the data were processed

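Total RNA of TM3 cells from 6 groups of 4 biological replicates was labelled with Cy3 and hybridized to 24 arrays of 62976 spots. The authors deposited scanner text from Agilent Feature Extraction 12.0 (named in the submitters' processing notes), in which the processed signal is an intensity in arbitrary units, background-subtracted and detrended but not scaled between arrays. The deposited series table holds log2 values that the authors made in GeneSpring from a 75th percentile shift and a median baseline per probe, and was used as an alternative. An aligner or genome build does not apply to the intensities.

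Spots marked as outliers were left out, the spots of a probe were averaged, and the log2 75th percentile of each array over all 56605 probes was subtracted. Tests were run on the 37684 probes that some group had well above background on 2 or more of its 4 arrays. Symbols came from RefSeq transcripts (34566 probes). Group means were fitted to all 24 arrays with limma (version 3.58.1, under R 4.3.3). Each contrast was adjusted after Benjamini and Hochberg over the tested probes and called at 0.05. The procedure was tested on simulated data. Plots and promoter searches used Python 3.11.15, pandas 2.3.3 and matplotlib 3.10.9. Precision was limited by the number of arrays and by how far signals stood over background.

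All 46 genes are named. Values array by array, for the groups of at least 1 comparison, are given for the gene with the largest difference of each role in 3 comparisons (sham at 4 h against 0 h, sham at 24 h against 4 h, nsPEF against sham at 4 h), and for Cdk1, Ccnb1, Plk1, Aurka, Aurkb, Top2a, Mki67, Cdc20 and Cdc25b. Those of Cenpe and Prc1 were added after their values were seen. Of the regulators, those called between nsPEF and sham at 4 h and the 5 largest differences in sham at 4 h are named. Foxm1, Nfya, Nfyb and Nfyc were added after their values were seen. The genes and lists were chosen with earlier results of these data known. The alternatives were quantile normalization, spike-in scaling (6 probes), the percentile over detected probes, normexp (offset 50), the deposited log2 values, 2 other filters, outlier spots kept, centring by array row, a plain analysis of variance, only the groups compared, a replicate block, the mean of a gene's probes, array weights and each array left out. Per the study, the tests of a biological replicate shared a cell suspension, but the labels do not say that array numbers mark it. Of 12 correlations between the deviations of sham and nsPEF arrays of one number, 0 were over 0.1 (from -0.05 to 0.10), and whether the numbers pair the arrays was not settled. The fit was made without the block, which was an alternative.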

Additional observations from a re-analysis of the deposited data

Results flagged for a closer look

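In each group of 4 arrays, the values of the 20 genes described array by array under the naming rule and the mean over the 46 genes were examined for an array whose gap to the nearest other, as a share of the group's range, exceeded Dixon's 95% critical value. This was met in 7 of 126 groups of values (5.56%), and chance alone gives about 1 in 20. In sham at 4 h replicate 4 lay below the other 3 for Aspm (1.84 against 2.08 to 2.11), Pttg1 (4.75 against 5.02 to 5.07) and Aurka (5.28 against 5.46 to 5.50). In sham at 0 h Aurka was low in replicate 3 (5.48 against 5.63 to 5.64) and Bub1b in replicate 2 (2.77 against 2.88 to 2.89). At 24 h Cdc25c was high in sham replicate 4 (1.88 against 1.79 to 1.80), and Aspm was high in nsPEF replicate 1 (3.38 against 2.88 to 2.91). Spots were not examined further, and the cause was not tested.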

How the results depend on the processing

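Under every alternative tried, 39 to 46 of the 46 genes were called lower at 4 h than at 0 h in sham and 40 to 46 in nsPEF. Scaling on the spike-in RNA reversed the comparison of 24 h with 0 h, with 44 genes called in sham and 37 in nsPEF, all higher, and medians of 0.57 and 0.43. It also reversed nsPEF against sham at 4 h (2 genes called, both higher, median 0.080). The median relative to all probes, -0.14, cannot change with this scaling, which subtracts 1 number per array. That relative median was -0.05 with quantile normalization, -0.09 with normexp, -0.10 with centring by array row and -0.26 with no filter. Aurka between 24 h and 4 h in sham reversed with quantile normalization (0.080), spike-in scaling (0.54), the percentile over detected probes (0.024) and normexp (0.13), and with spike-in scaling so did Prc1 in that comparison (0.41) and Top2a (0.028) and Cenpe (0.036) between nsPEF and sham at 4 h.

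The count for nsPEF against sham at 4 h, 4 in the report, was 0 with the percentile over detected probes and with only the arrays compared, 7 with quantile normalization (6 lower and Spc24 higher) and with outlier spots kept, and 8 with the deposited log2 values and with a plain analysis of variance. At 24 h, where it was 0, it was 7 with array weights, 3 with normexp, with the deposited log2 values and with outlier spots kept, and 1 with quantile normalization, no filter and a plain analysis of variance. For the change of the nsPEF difference from 0 h to 24 h it was 2 with array weights, and from 4 h to 24 h it was 1 with spike-in scaling, a plain analysis of variance and array weights. Leaving out arrays gave 0 to 7 genes for nsPEF against sham at 4 h, 0 to 4 at 24 h and 0 to 1 for each of these changes over time. For nsPEF against sham at 24 h the count was 4 without nsPEF replicate 1 at 24 h. With the replicate block it was 5 at 4 h. Of the 12 sham arrays, 7 correlated best with the nsPEF array of their own number, among them all 4 at 4 h. The causes were not tested. With 4 arrays a group, differences between nsPEF and sham as large as -0.25 (Espl1 at 4 h) and -0.27 (Aspm at 24 h) were not called.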
